A study of Rattus norvegicus with 4 samples.

Results

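The genes described here are 45 DNA replication genes, chosen by name: the subunits of the MCM helicase, the clamp and its loader, the licensing factors, CDC45 and GINS, the replicative polymerases and primase, the enzymes of deoxynucleotide supply, and factors that bind, join, repair or repackage new DNA. Of these, 42 had a probe set that the array annotation gives to 1 gene, out of 14218 such genes on the array, and 41 of the 42 passed a floor of a log2 value of 6 on at least 1 array, out of 8802 genes. Where a gene had several probe sets, the one with the highest mean over the 4 days was used. Cdc6 and Gins2 had no probe set listed under their names, and the 2 probe sets listed for Rrm2 carry a further gene, so these 3 are not analysed here.

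RNA came from ROE2, oral epithelial cells whose life span is labelled immortalized, derived from tongue tissue of a Wistar rat fetus (18 days) transgenic for SV40 large T antigen of the temperature-sensitive kind. All 4 groups carry this transgene. Cells were grown for 24 h at 33 °C on collagen type I with 2% serum and 10 ng/ml EGF, then moved to 37 °C and collected after 0 (the control), 3, 6 or 9 days, and 1 array of log2 values was made per day. There were no replicates, so no test was run and each difference stands without a replicate check. Days 3, 6 and 9 differ from day 0 in temperature, in time in culture and in the array, and these cannot be told apart.

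Before S phase the origin recognition complex, CDC6 and CDT1 load the MCM helicase onto DNA, and in S phase CDC45 and GINS join it to form the working helicase. Primase with polymerase alpha starts each strand, the RFC loader sets the PCNA ring on the primer, polymerases epsilon and delta extend it, and FEN1 and DNA ligase I join the lagging strand pieces. Most of these genes are switched on together at the end of G1 by E2F factors, which retinoblastoma proteins hold in check, and SV40 large T binds retinoblastoma proteins and frees E2F while it is active.

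In the probe sets used, all 41 genes but Rfc1 were lower on day 6 than on day 0 and on day 9 than on day 0, by small amounts. Of all 8802 genes, 62.7% were lower on day 6 and 61.0% on day 9. The median difference from day 0 was -0.33 on day 3, -0.65 on day 6 and -0.56 on day 9 on the log2 scale, against -0.05, -0.18 and -0.14 for all 8802 genes. On day 6 the lowest group medians were those of nucleotide supply at -0.87 and chromatin assembly and methylation at -0.78, with 3 genes each. Next came the clamp and its loader at -0.73 and the MCM helicase at -0.70, with 6 genes each. On that day Rfc5 was at 39.7% of its day 0 value, Mcm7 at 41.7%, Orc1 at 43.4% and Dut at 48.9%, and Pole2 was 2.08-fold lower. On day 9 the MCM genes were nearer to day 0 than on day 6, except Mcm3, whereas Pcna, Rfc2, Rfc3, Rpa1, Pola1 and Cdc45 were lower on day 9 than on any other day.

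The promoters of the MCM genes are shown because all 6 genes were low on each later day. They were also chosen because the motif that E2F factors bind was found in each MCM promoter with an entry. The promoters of Rfc5 and Rfc1 are shown for comparison. In the probe sets used, Rfc5 was the lowest gene of the list relative to day 0 on day 6. Rfc1 was above its day 0 value on days 6 and 9 in the probe set used. Another of its probe sets was at -0.63 and -0.60 on those days, so the direction of Rfc1 is not settled. Each runs from 250 bases before to 50 bases after the annotated start, 5′ to 3′ (RefSeq, build GRCr8), and Mcm4 had no entry. Capitals mark the letters TTTGGCGC, TTTCCCGC, TTTGCCGC or TTTCGCGC on either strand, the E2F motif searched for, and matches that overlap were joined to 1 site.
Mcm2, chr4:122918045-122918344, minus strand: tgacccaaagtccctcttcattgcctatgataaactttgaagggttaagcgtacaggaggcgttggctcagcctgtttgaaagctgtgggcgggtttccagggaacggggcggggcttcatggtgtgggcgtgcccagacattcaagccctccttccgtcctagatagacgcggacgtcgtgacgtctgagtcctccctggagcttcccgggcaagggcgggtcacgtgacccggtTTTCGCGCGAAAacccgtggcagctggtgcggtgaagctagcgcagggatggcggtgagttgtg
Mcm3, chr9:30733697-30733996, minus strand: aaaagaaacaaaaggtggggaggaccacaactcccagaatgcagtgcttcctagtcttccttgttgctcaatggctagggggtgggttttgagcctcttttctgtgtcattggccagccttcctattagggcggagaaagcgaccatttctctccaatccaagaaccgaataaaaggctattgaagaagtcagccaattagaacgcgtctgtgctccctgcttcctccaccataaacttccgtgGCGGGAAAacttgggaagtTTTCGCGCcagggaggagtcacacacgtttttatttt
Mcm5, chr19:13488563-13488862, plus strand: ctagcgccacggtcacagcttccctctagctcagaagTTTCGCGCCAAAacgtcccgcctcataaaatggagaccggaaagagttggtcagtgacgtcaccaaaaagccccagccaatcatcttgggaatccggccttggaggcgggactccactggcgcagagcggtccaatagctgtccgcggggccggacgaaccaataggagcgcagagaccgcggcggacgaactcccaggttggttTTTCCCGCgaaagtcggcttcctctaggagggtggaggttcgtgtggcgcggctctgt
Mcm6, chr13:42404303-42404602, minus strand: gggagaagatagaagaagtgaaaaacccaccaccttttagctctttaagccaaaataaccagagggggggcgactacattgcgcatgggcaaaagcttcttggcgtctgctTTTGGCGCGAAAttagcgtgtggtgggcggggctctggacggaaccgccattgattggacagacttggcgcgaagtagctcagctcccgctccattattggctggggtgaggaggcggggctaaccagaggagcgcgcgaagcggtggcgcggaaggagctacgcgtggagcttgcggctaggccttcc
Mcm7, chr12:22163129-22163428, minus strand: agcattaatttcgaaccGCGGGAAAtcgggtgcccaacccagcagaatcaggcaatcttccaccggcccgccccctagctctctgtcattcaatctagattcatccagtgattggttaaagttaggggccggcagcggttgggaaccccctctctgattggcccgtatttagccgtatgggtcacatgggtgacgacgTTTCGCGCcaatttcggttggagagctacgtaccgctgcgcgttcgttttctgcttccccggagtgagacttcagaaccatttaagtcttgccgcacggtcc
Rfc5, chr12:44868072-44868371, plus strand: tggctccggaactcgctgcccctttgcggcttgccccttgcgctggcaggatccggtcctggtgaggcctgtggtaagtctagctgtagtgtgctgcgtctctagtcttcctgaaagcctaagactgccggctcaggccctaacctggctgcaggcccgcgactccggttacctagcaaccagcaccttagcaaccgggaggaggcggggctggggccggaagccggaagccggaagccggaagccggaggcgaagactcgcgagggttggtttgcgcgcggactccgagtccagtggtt
Rfc1, chr14:43319748-43320047, plus strand: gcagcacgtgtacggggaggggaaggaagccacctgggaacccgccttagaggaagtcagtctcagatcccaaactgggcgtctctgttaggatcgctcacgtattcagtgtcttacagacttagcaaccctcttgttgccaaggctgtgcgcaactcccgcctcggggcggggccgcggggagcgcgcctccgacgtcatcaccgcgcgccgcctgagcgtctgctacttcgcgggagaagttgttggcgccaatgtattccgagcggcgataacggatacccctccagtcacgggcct
Mcm2 and Mcm6 held 1 site each, and Mcm3, Mcm5 and Mcm7 held 2 each. The Mcm2 site begins 14 bases before the annotated start, and a site of Mcm5 begins 8 bases before it. Rfc5 and Rfc1 held none of these letters in the window. Over the whole list, 17 of 39 promoters held a site (43.6%), against 2.82% of 18999 protein-coding promoters of the same length and 4.46% of the 7382 whose genes passed the floor. The shorter CCAAT box, bound by NF-Y, was in 61.5% of the 39 and 38.4% of all protein-coding promoters, and the CHR letters TTTGAA, typical of later cell cycle genes, were in 10.3% of the 39, 17.0% of all and 11.3% of those whose genes passed the floor. A match is a description of letters and not a measured site.

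As the arrays were deposited, the share of these genes that were 1.5-fold or more lower was above that of all genes on each day, and the share 2-fold or more lower was above it on day 6 and below it on days 3 and 9. On day 3, 38 of 41 were below day 0, against 55.8% of all genes, and 6 were 1.5-fold or more lower, against a background of 10.0%. At 2-fold or more lower there were 0 of 41, against a background of 2.15%. On day 6, 40 were below day 0 (62.7% of all genes), 25 were 1.5-fold or more lower (22.9%) and 5 were 2-fold or more lower (8.08%). On day 9, 40 were below day 0 (61.0%), 20 were 1.5-fold or more lower (19.6%) and 2 were 2-fold or more lower (6.25%), and 1 was 1.5-fold or more higher (12.0%). On all 3 later days 37 of the 41 were below day 0, against 44.3% of all genes, the others being Rfc1, Cdc45, Pold1 and Msh6. In the probe sets used, the 5 genes 2-fold or more lower on any day were Mcm7, Rfc5, Orc1, Pole2 and Dut. The share of all genes 2-fold or more lower on any day was not computed. The cumulative plot shows the middle of the list to the left of all genes, while its lower end at 2-fold is to the right of them on days 3 and 9.

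**Figure D1:**
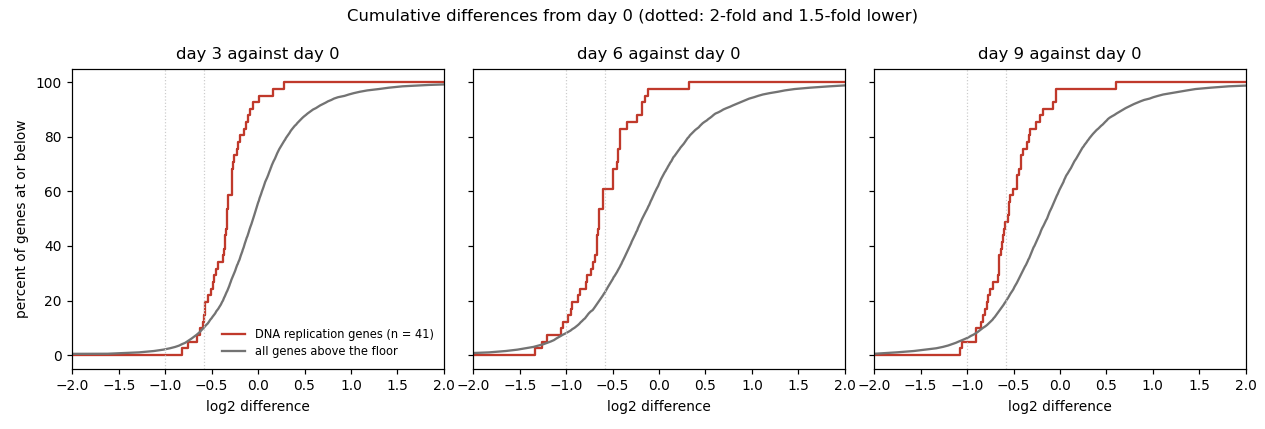
Percent of genes (vertical axis) at or below each log2 difference from day 0 (horizontal axis) on days 3, 6 and 9, for 41 DNA replication genes (red) and all 8802 genes above the floor (grey); dotted lines mark 2-fold and 1.5-fold lower. The red curve crosses its middle at -0.33, -0.65 and -0.56 and at the 2-fold line stands at 0, 12.2 and 4.88%, against 2.15, 8.08 and 6.25% of all genes.

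The counts past a fixed size depended on how arrays were scaled. When arrays were centred on the median gene, 4, 12 and 11 of the 41 genes were 1.5-fold or more lower on days 3, 6 and 9, against 9.30%, 15.7% and 14.5% of all genes. Centred on housekeeping genes, 2 of 41 (4.88%) were on day 3, against 5.45% of all genes, so on day 3 the list was near the background under both centrings. Centred on 18 hybridisation spike-in probe sets, 36 and 40 of 41 were on days 6 and 9, against 48.9% and 64.5% of all genes, and at 2-fold 53.7% and 75.6% of the list were, against 21.6% and 33.1%. The spike-ins themselves stood at 0.14, 0.39 and 0.63 against day 0 on days 3, 6 and 9, while the gap between the list's median and that of all genes was -0.28, -0.47 and -0.42 on days 3, 6 and 9 under any such common shift. In RNA from whole cultures, fewer cells in S phase and less of each transcript per cell cannot be told apart. On the day 6 array the beta-actin probe sets at the 3′ and 5′ ends differed by 1.22 on the log2 scale. The beta-actin value was 2.25 on day 0, 2.44 on day 3 and 2.35 on day 9. The same value for GAPDH was -0.02 on day 6, against 0.10, 0.04 and 0.18. For hexokinase it was 1.45 on day 6 and lay between 1.41 and 1.75 on the other days, so only beta-actin stood apart on day 6. The labels give RNA integrity numbers of 9.5 to 10. The part of the beta-actin difference in the low day 6 values was not tested.

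The 6 MCM genes encode the ring that unwinds DNA, and all 6 were below day 0 on each later day. Mcm7 had log2 values of 11.02, 10.20, 9.75 and 10.18 on days 0, 3, 6 and 9. It was the lowest of the 41 genes relative to day 0 on day 3, at -0.82, and was 2.40-fold lower on day 6 and 1.78-fold lower on day 9. Mcm2 was at 9.80, 9.47, 9.11 and 9.45, Mcm4 at 10.34, 9.74, 9.73 and 10.01, and Mcm5 at 9.00, 8.47, 8.29 and 8.59. These 3, like Mcm7, had their lowest value on day 6, although Mcm4 hardly differed between days 3 and 6, and were then 0.34, 0.28 and 0.30 higher on day 9 than on day 6. Mcm6 was at 10.70, 10.37, 9.96 and 10.07, with little difference between its last 2 days. Mcm3 took another course and was lower on each later array, at 9.20, 8.85, 8.60 and 8.42. The group's median difference from day 0 was -0.44, -0.70 and -0.52 on days 3, 6 and 9, and its 6 members were all among the lowest 25% of all genes on days 3 and 6, as were 3 of them on day 9.

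**Figure D2:**
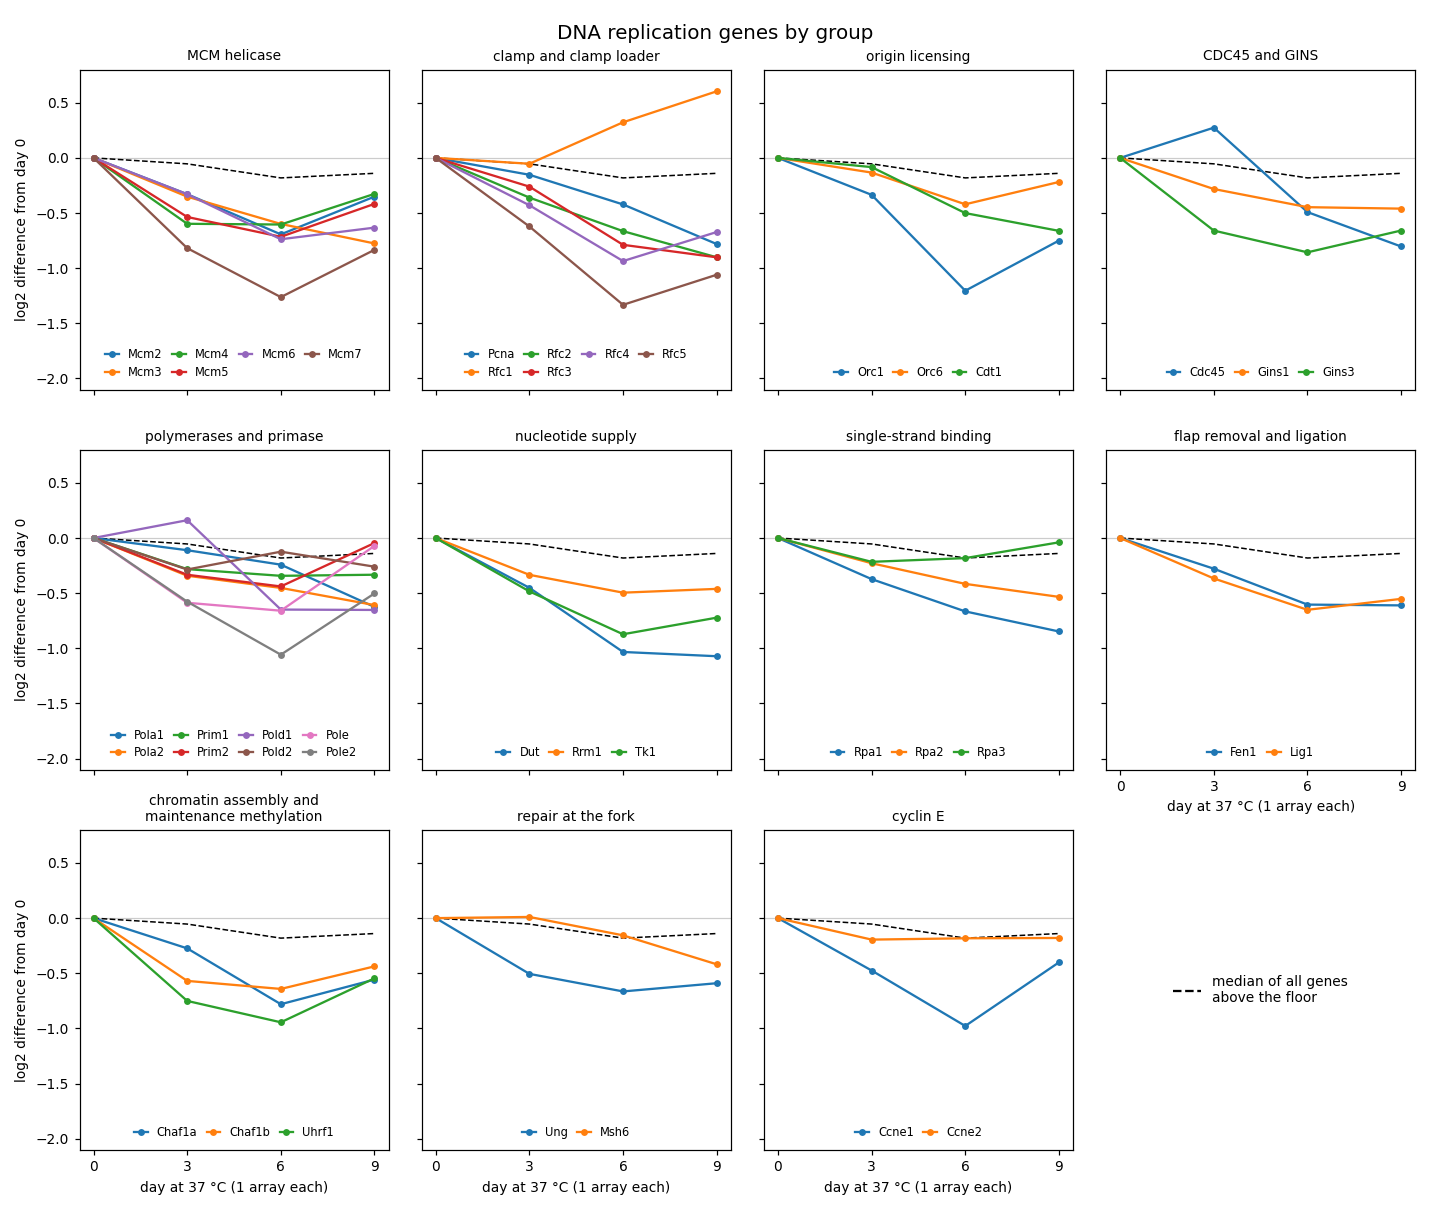
Log2 difference from day 0 (vertical axis) by day at 37 °C (horizontal axis) for 41 genes in 11 groups, 1 line per gene and 1 array per day; the dashed line is the median of all genes above the floor. Most lines lie below the dashed line, and Rfc1, at 0.60 on day 9, lies above 0.

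The sliding clamp gene Pcna, whose product holds polymerases on DNA, had log2 values of 12.17, 12.01, 11.75 and 11.39 on days 0, 3, 6 and 9. Its largest step was the last, at -0.36 on day 9 against day 6, and it was 1.72-fold lower on day 9 than on day 0. Among the small subunits of the clamp loader, Rfc5 was at 10.45, 9.83, 9.12 and 9.39, the lowest of all 41 genes relative to day 0 on day 6, 2.52-fold lower, and 2.08-fold lower on day 9. Rfc4 was at 10.70, 10.27, 9.77 and 10.03 and, like Rfc5, was higher on day 9 than on day 6. Rfc2, at 9.34, 8.98, 8.67 and 8.43, and Rfc3, at 8.67, 8.41, 7.89 and 7.77, were lower on every later array, and both were 1.87-fold lower on day 9. The large subunit gene Rfc1 stood apart, at 7.74, 7.69, 8.07 and 8.35, 0.60 higher on day 9 than on day 0. The group's median was -0.31, -0.73 and -0.84 on days 3, 6 and 9.

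For Rfc1 the direction rested on the probe set. A second read 5.59, 5.71, 6.43 and 6.35 on days 0, 3, 6 and 9, and another 8.22, 8.07, 7.59 and 7.62. The 3 probe sets were all above the floor and stood at 0.60, 0.76 and -0.60 on day 9 against day 0, the first being the one used. Centring on the spike-ins put the used one at -0.030. A second probe set of Rfc5 read 10.14, 9.58, 9.23 and 9.37 on days 0, 3, 6 and 9, or -0.91 on day 6 and -0.77 on day 9 against day 0, in the same direction but under 2-fold on both days.

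More than 1 probe set was listed for 8 genes, and 10 of the 13 further probe sets were above the floor. Of these 10, some of which belong to the same gene, 8 were below day 0 on day 6 and 8 on day 9. Of all 8802 genes, 62.7% were below day 0 on day 6 and 61.0% on day 9. The further probe sets of Tk1 stood at -1.36 and -0.74 on day 6, around -0.87 for the one used. The 3 probe sets of Cdc45 above the floor were all higher on day 3 than on day 0 and lay between -0.80 and -0.86 on day 9. Lig1 was the other gene with opposite readings, at -0.65 on day 6 in the probe set used and 0.77 in another whose name marks possible cross-hybridisation and which read 7.42, 6.96, 8.19 and 8.10. The probe sets used for Cdc45, Mcm6 and Msh6 also carry marks that were treated as cross-hybridisation marks.

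**Figure D3:**
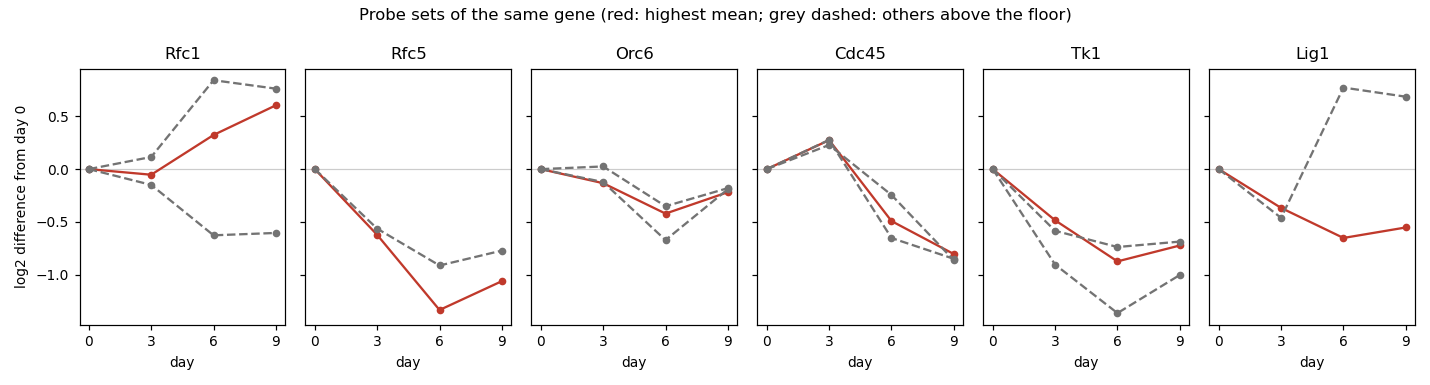
Log2 difference from day 0 (vertical axis) by day (horizontal axis) for the 6 genes with more than 1 probe set above the floor; red lines are the probe sets used and grey dashed lines the others. Probe sets of Cdc45, Orc6, Tk1 and Rfc5 all lie below day 0 on days 6 and 9, and those of Rfc1 and Lig1 part after day 3, to 0.60 and -0.60 for Rfc1 and -0.55 and 0.68 for Lig1 on day 9.

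Of the licensing genes, Orc1, which encodes the large ATP-binding subunit of the origin recognition complex, had log2 values of 7.10, 6.77, 5.90 and 6.35 on days 0, 3, 6 and 9. It was 2.30-fold lower on day 6, a value below the floor, and 1.68-fold lower on day 9 than on day 0. Most of that difference came between days 3 and 6, at -0.87, the lowest of the 41 genes for that step. Orc6, a smaller subunit, was at 8.41, 8.27, 7.99 and 8.19, with no more than -0.42 from day 0 on any day. Cdt1, which brings the MCM ring to origins, was at 8.60, 8.52, 8.10 and 7.94 and was lowest on day 9, at -0.66.

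Among the genes of helicase activation, Cdc45 was at 8.87, 9.15, 8.38 and 8.07 on days 0, 3, 6 and 9. It was 0.27 higher on day 3 than on day 0, the highest of the 41 genes on that day, and on day 9 it was at -1.08 against day 3, the lowest of them in that comparison. The GINS gene Gins3 was low from day 3 on, at 7.40, 6.74, 6.54 and 6.74, with -0.66 already on day 3 and -0.66 on day 9. Gins1 was at 7.45, 7.17 and 6.99 on days 0, 3 and 9, and its differences from day 0 on days 6 and 9 were -0.45 and -0.46.

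The polymerase and primase genes differed among themselves in size and course, with a median of -0.31, -0.45 and -0.42 on days 3, 6 and 9. Pole2, the second subunit gene of polymerase epsilon, had 7.36, 6.79, 6.31 and 6.86 on days 0, 3, 6 and 9, 2.08-fold lower on day 6. Pole, which encodes the catalytic subunit of the same enzyme, was at 7.58, 6.99, 6.92 and 7.51. On day 9 it was at -0.07 against day 0, and it was 0.59 higher than on day 6, the 1 gene of the 41 that was 1.5-fold or more higher in that step, where the background was 2.66%. The primase gene Prim2, at 7.56, 7.22, 7.12 and 7.51, also ended near its day 0 value, at -0.05.

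Other genes of this group were low later or differed less. Pold1, the catalytic subunit gene of polymerase delta, was at 8.25, 8.41, 7.60 and 7.60 on days 0, 3, 6 and 9, above day 0 on day 3 and at -0.65 on days 6 and 9. Pola1, the catalytic subunit gene of polymerase alpha, was at 7.93, 7.82, 7.68 and 7.30, with its largest step the last, at -0.38 on day 9 against day 6. Pola2, at 7.69, 7.35, 7.24 and 7.08, was lower on each later array. Prim1, at 10.65, 10.37, 10.31 and 10.32, and Pold2, at 9.30, 9.01, 9.17 and 9.04, stayed within -0.34 and -0.29 of day 0.

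The nucleotide supply genes above the floor were below day 0 on all later days, with a median of -0.45, -0.87 and -0.72. Dut, whose product removes dUTP so that uracil is not built into DNA, was at 11.19, 10.73, 10.15 and 10.11 on days 0, 3, 6 and 9, 2.05-fold lower on day 6 and 2.10-fold lower on day 9, and it was the lowest of the 41 genes relative to day 0 on day 9. The thymidine kinase gene Tk1 was at 9.82, 9.34, 8.95 and 9.10, 1.83-fold lower on day 6. Rrm1, the large subunit gene of ribonucleotide reductase, was at 9.58, 9.24, 9.08 and 9.12 and no lower than -0.50. The thymidylate synthase gene Tyms missed the floor on every day, at 5.85, 4.94, 5.07 and 5.71. Its values stood above the brightest bacterial control probe set, which read 4.19, 4.36, 4.51 and 4.56, on every day, by the least on day 6.

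The single-strand binding genes had parted from each other by day 6 and lay further apart on day 9. Rpa1, the large subunit gene, was at 8.75, 8.38, 8.08 and 7.90 on days 0, 3, 6 and 9 and 1.80-fold lower on day 9. Rpa2 was at 7.87, 7.64, 7.46 and 7.34, or -0.53 on day 9, and Rpa3, the smallest subunit gene, at 10.26, 10.05, 10.08 and 10.22, or -0.04. Fen1, the flap nuclease gene, was at 8.30, 8.02, 7.70 and 7.69 and Lig1, the ligase gene, at 9.17, 8.80, 8.52 and 8.62, in the probe set used.

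Of the genes that repackage new DNA, Uhrf1, which guides copying of DNA methylation, was at 8.84, 8.09, 7.90 and 8.29 on days 0, 3, 6 and 9, next to Mcm7 in its day 3 difference at -0.75. The chromatin assembly factor genes Chaf1a, at 8.08, 7.81, 7.30 and 7.53, and Chaf1b, at 7.66, 7.09, 7.01 and 7.22, were also lowest on day 6. All 3 were 1.5-fold or more lower on day 6 and none was on day 9. Ung, the uracil glycosylase gene, was at 9.32, 8.81, 8.65 and 8.73, and the mismatch recognition gene Msh6 at 9.47, 9.48, 9.31 and 9.05, at its day 0 level on day 3 and -0.42 on day 9. Of the cyclin E genes, which drive entry to S phase with CDK2, Ccne1 was at 7.82, 7.34, 6.84 and 7.42, 1.97-fold lower on day 6 and 0.58 higher on day 9 than on day 6. Ccne2 was at 7.95, 7.75, 7.76 and 7.77 and differed little between the later days.

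By course, 22 of the 41 genes were lowest on day 6, 15 on day 9, 4 on day 3 and 0 on day 0. The lowest point was on day 6 for 5 of 6 MCM genes, for Rfc4, Rfc5, Orc1, Orc6, Gins3, Pole, Pole2 and Ccne1, and for all 3 chromatin genes. It was on day 9 for Pcna, Rfc2, Rfc3, Cdt1, Cdc45, Gins1, Pola1, Pola2, Pold1, Dut, Rpa1, Rpa2, Fen1, Msh6 and Mcm3. Of these 15, 12 were lower at every step. The largest step down lay between days 0 and 3 for 24 genes, between days 3 and 6 for 14, and between days 6 and 9 for 3, namely Pcna, Pola1 and Msh6. The shares of all genes with these courses were not computed, so the counts stand without a background. The median of all 8802 genes against day 0 was also lowest on day 6, at -0.05, -0.18 and -0.14 on days 3, 6 and 9. Centred on the spike-ins, the list's median for day 9 against day 6 was -0.15 in place of 0.10, so the lowest day depends on the scaling.

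Between days 3 and 6 the list's median was below that of all genes, and between days 6 and 9 the 2 medians were close. In the first of these steps, 37 of 41 genes were lower on day 6, against 65.9% of all genes, with a median of -0.27 against -0.13. Between days 6 and 9, 25 of 41 (61.0%) were higher on day 9, against 57.8% of all genes, with a median of 0.10 against 0.05, and after centring on the spike-ins the list's median for that step was -0.15. At 0.2 or more on the log2 scale, 16 of 41 were higher on day 9 than on day 6, against 27.6% of all genes, and 5 were lower, against 17.9%. At 0.3 or more, 8 of 41 were higher, against 16.4% of all genes, and 3 were lower, against 10.7%. From day 3 to day 9, both at 37 °C, 5 of 41 were 1.5-fold or more lower on day 9, against a background of 12.0%. Only Pole, Pole2 and Ccne1 lay above the 95th percentile of all genes for day 9 minus day 6, which was 0.49, and none of the 41 lay below the 5th, which was -0.45.

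**Figure D4:**
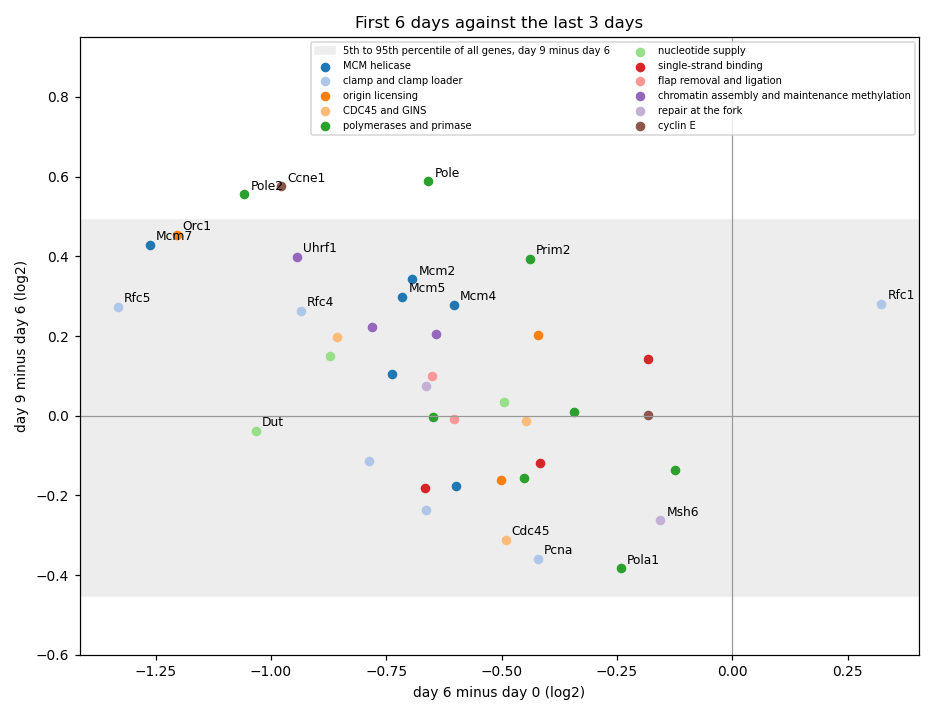
Day 9 minus day 6 (vertical axis) against day 6 minus day 0 (horizontal axis), both log2, 1 point per gene coloured by group; the grey band is the 5th to 95th percentile of all genes for day 9 minus day 6, from -0.45 to 0.49. Both axes use the day 6 array, so an error of that array moves a point along both; Pole, Pole2 and Ccne1 lie above the band and Pola1, at -0.38, is the lowest point.

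The genes with an E2F match in the promoter window and those without had nearly the same medians on each day. On day 6 the 16 genes above the floor with a match had a median of -0.66 and lay between -1.26 and -0.16, and the 21 without had a median of -0.64 and lay between -1.33 and 0.32. On day 9 the medians were -0.57 and -0.61. On day 3 they were -0.34 and -0.33. The ranges overlapped on every day, and the windows use RefSeq starts, which may not be those used in these cells. Only the exact letters were searched for, so a gene without a match may still hold an E2F site of other letters.

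**Figure D5:**
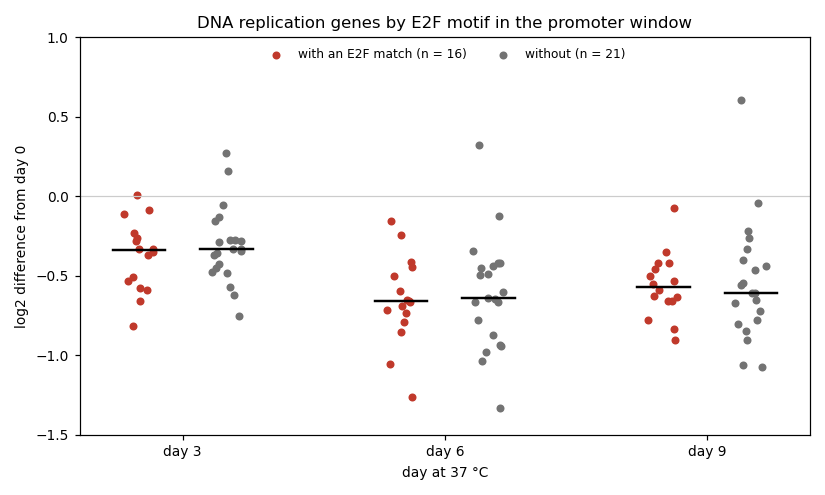
Log2 difference from day 0 (vertical axis) on days 3, 6 and 9 (horizontal axis) for genes with (red, n = 16) and without (grey, n = 21) an E2F match in the window around the annotated start; bars are medians. The medians are -0.66 with a match and -0.64 without on day 6, and the points overlap.

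Other genes of replication were given by a list of 88, of which 77 had a probe set of 1 gene and 73 passed the floor. Of 50 that encode replication, repair or chromatin factors, 4, 21 and 17 were 1.5-fold or more lower than day 0 on days 3, 6 and 9, against 10.0%, 22.9% and 19.6% of all genes, and 3 were 1.5-fold or more higher on day 9, against 12.0%, with a median of -0.15, -0.50 and -0.43. The nucleotide supply genes among them did not share a direction, and lay between -0.93 and 0.51 on day 6 against day 0. The largest differences in the whole list on day 9 were those of Cdkn1c, Rnaseh2b, Dtl and Cdkn2a. Rnaseh2b, a subunit gene of the enzyme that removes ribonucleotides from DNA, was at 7.85, 5.92, 5.09 and 6.32 on days 0, 3, 6 and 9 in its 1 probe set, or -1.94 already on day 3 and -2.76 on day 6, both days being below the floor of 6. Dtl, which encodes the receptor that directs CDT1 for destruction, was at 9.86, 9.33, 9.06 and 8.70, or -1.16 on day 9. The replication factor gene Mcm10 was at 7.51, 7.45, 6.97 and 6.82, and the CDT1 inhibitor gene Gmnn at 9.62, 9.12, 9.02 and 9.25.

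The 23 regulator genes above the floor had a median of -0.00, -0.22 and -0.12, near that of all genes. E2f1 was at 6.96, 7.04, 6.80 and 6.62 on days 0, 3, 6 and 9, and the retinoblastoma gene Rb1 at 7.18, 7.97, 7.74 and 7.65, 0.79 higher on day 3 than on day 0. Cdkn1c, the p57 inhibitor gene, was at 7.22, 10.33, 10.04 and 8.79, and Cdkn2a at 11.59, 11.10, 10.65 and 10.45. The cyclin D1 gene Ccnd1 was at 12.66, 13.10, 12.44 and 11.94, and the p21 gene Cdkn1a at 10.62, 10.91, 10.78 and 11.11. Of 2 further cell cycle genes, Mki67 was at 9.61, 9.61, 9.72 and 9.53, and Top2a at 9.59, 9.75, 9.80 and 9.02, neither of them below day 0 on day 6.

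The arrays bore the label of an oral epithelial line, with 6 of 6 basal epithelial markers above the floor and Krt14 near the top of the scale on all days. Of 8 fibroblast, 3 endothelial and 5 muscle marker genes with a probe set, 0 passed the floor, and of 4 leukocyte genes only Cd68 did, at 5.32, 6.54, 6.27 and 6.18 on days 0, 3, 6 and 9. The summed linear level of the fibroblast list was 107, 102, 110 and 106, and of its genes Pdgfrb was above the brightest bacterial control on every day, Thy1 was on day 0, and the other 6 were on no day. The basal markers did not share a course: Krt5, Itga6 and Itgb4 were below day 0 on each later day, whereas Tp63 and Krt15 were above it. Krt15, a keratin of basal cells, was at 9.11, 11.06, 12.23 and 11.78. Of 5 general epithelial markers, 4 passed the floor and Krt18 did not. Among these 4, Krt8, a keratin of simple epithelia, was below day 0 throughout, at 8.58, 7.70, 7.08 and 7.43. By contrast, Dsp was above day 0 on each later day, Cdh1 on days 6 and 9, and Epcam on days 3 and 6. Krt15 and Krt8 had the largest differences of their lists, and their part in the levels of the replication genes was not tested.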

How the data were processed

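Each of the 4 cultures gave 1 Affymetrix rat array. The deposited log2 values per probe set come from RMA, run by the authors, as named in the submitters' processing notes; no software, version or settings are stated in the sources used here, and the base of the logarithm was taken from the values, which span 1.55 to 14.2. RMA removes most of any shift shared by all genes.

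Of 31099 probe sets, the platform annotation gives 1 gene to 20832, which were used. Each gene took its brightest probe set by the mean of all arrays, and 8802 of 14218 genes reached log2 6 on 1 array or more. Days come from the labels. Genes were counted at 2-fold and 1.5-fold between pairs of arrays. The counting was tried on simulated data with the spread of day 9 minus day 6, the closest pair of arrays. Limits were set there for the 2-fold count and not for the 1.5-fold count. The simulation gives no error rate for the counts against day 0. The number of arrays limits the precision. The members and lists were chosen with earlier results of these data known, and the promoters to print after their values were seen. All listed genes could be named, and of the other replication genes the 4 with the largest day 9 differences and a set of regulators and markers, of which Cdc7 and Dbf4 had no probe set of 1 gene. Alternatives were floors of 5, 8 and none, the mean over probe sets, leaving out cross-hybridisation marks, centring on the median gene, 14 housekeeping genes or 18 spike-in probe sets, and further quantile normalization. Python 3.11.15, numpy 2.4.6, pandas 2.3.3 and matplotlib 3.10.9 were used.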

Additional observations from a re-analysis of the deposited data

How the results depend on the processing

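Of 99 recomputed counts and medians of the 41 genes, 77 were within 1.5 times the reported value and 22 were not; a median was also taken as unmoved when it moved by under 0.05. Centred on housekeeping genes, the day 3 median was -0.18 with 2 genes 1.5-fold or more lower (5.45% of all genes), day 6 had 12 at 1.5-fold (15.6%) and 3 at 2-fold (5.01%), and day 9 had 9 (11.6%) and 0 (3.78%). Centred on the median gene, day 6 had 12 at 1.5-fold (15.7%) and 3 at 2-fold (5.08%), day 9 had 11 (14.5%) and 0 (4.67%), and the steps from day 3 to 6 and from day 6 to 9 were -0.13 and 0.047. Centred on the spike-ins, the medians were -1.04 and -1.19 on days 6 and 9, the steps were -0.52 and -0.15, 13 and 40 genes were 1.5-fold or more lower on days 3 and 9 (16.3% and 64.5% of all genes), and 22 and 31 were 2-fold or more lower on days 6 and 9 (21.6% and 33.1%). A floor of 8 left 29 genes of the list, and 3 of them (10.3%) were 2-fold or more lower on day 6, against 6.83% of all genes. With the mean over probe sets, 0 of 41 were 2-fold or more lower on day 9, against 5.12% of all genes. Under all of these alternatives the list's median lay below that of all genes, by -0.31 to -0.28 on day 3, -0.61 to -0.44 on day 6 and -0.53 to -0.42 on day 9. The licensing group's median on day 3 was 0.024 centred on housekeeping genes, and that of CDC45 and GINS was 0.27 with a floor of 8, which leaves Cdc45 alone. With the mean over probe sets Lig1 was at 0.060 on day 6. Centred on the spike-ins, Rfc1 was at -0.030 on day 9. Except where fewer genes or other probe sets give the value, the cause was not tested. No paired analysis was possible because each day has 1 array. With 1 array per day no array could be left out of a group. Signal over background limits Tyms most.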
